A study of Rattus norvegicus with 7 samples.

Results

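The glucocorticoid receptor gene Nr3c1 and 7 genes that glucocorticoids induce in many tissues (Pdk4, Tsc22d3, Fkbp5, Zbtb16, Klf9, Errfi1 and Cebpd) were described in single-nucleus RNA from rat kidney. These 8 genes were taken by symbol from the 25399 genes of the deposited tables, and each symbol belonged to 1 gene. They were proposed with their levels in these libraries already known, so their differences between the groups are given as a description. The nuclei came from archived kidneys of 4-week-old HSRA rats, a rat line studied for congenital loss of nephrons. By their titles 3 libraries are from animals with 1 kidney and 4 from animals with 2 kidneys. The protocol lists the animals as HSRA-S (3) and HSRA-C (4). Each library was taken as 1 animal, and both groups share the strain, the age and a central section of kidney with cortex and medulla. The labels name no drug, hormone or diet treatment, and give neither the hour of collection nor a corticosterone level. The archived kidneys are stated to be those of a methylation study, which was not used here.

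The glucocorticoid receptor is a cytosolic hormone receptor that is held by heat shock protein 90 and its partner proteins. It binds corticosterone in the rat, enters the nucleus and acts there on DNA elements made of an inverted repeat. Before it reaches the receptor, the hormone can be regenerated in the cell by the enzyme of Hsd11b1 or inactivated by that of Hsd11b2, which protects the mineralocorticoid receptor in the distal nephron. Pdk4 encodes a mitochondrial kinase that inhibits pyruvate dehydrogenase and spares glucose in fasting. Tsc22d3 encodes GILZ, a leucine zipper protein that mediates anti-inflammatory actions, and Fkbp5 encodes a co-chaperone that lowers the receptor's hormone affinity, which closes a feedback loop. Zbtb16 (also called PLZF), Klf9 and Cebpd encode transcription factors, and Errfi1 encodes an intracellular inhibitor of the EGF receptor.

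The promoters of the induced genes were examined first, since glucocorticoid response elements are what these genes are known to share. The 250 bases before each annotated start were taken from RefSeq (build GRCr8), which gave 9 windows for 6 of the 8 genes. Pdk4, Fkbp5 and Tsc22d3 are shown because their groups did not overlap, and Errfi1 because it held the closest match among them. In each sequence, printed 5′ to 3′ on the gene's strand, capitals mark the stretch with the most letters in common with the receptor's element, which is AGAACA, then 3 bases of any kind, then TGTTCT.

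Pdk4 (chr4:34568330-34568579, minus strand): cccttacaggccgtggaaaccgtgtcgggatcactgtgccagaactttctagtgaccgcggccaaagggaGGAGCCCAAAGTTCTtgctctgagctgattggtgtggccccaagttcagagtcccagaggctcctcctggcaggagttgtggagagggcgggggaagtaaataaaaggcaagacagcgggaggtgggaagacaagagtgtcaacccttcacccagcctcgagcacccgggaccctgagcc

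Fkbp5 (chr20:6543556-6543805, minus strand): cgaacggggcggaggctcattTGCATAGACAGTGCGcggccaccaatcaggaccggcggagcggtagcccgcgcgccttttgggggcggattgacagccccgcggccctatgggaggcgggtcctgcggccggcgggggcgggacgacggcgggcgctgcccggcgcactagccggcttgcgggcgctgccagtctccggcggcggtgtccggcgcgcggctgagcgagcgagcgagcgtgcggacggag

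Tsc22d3, the most downstream of its 3 starts (chrX:109010035-109010284, minus strand): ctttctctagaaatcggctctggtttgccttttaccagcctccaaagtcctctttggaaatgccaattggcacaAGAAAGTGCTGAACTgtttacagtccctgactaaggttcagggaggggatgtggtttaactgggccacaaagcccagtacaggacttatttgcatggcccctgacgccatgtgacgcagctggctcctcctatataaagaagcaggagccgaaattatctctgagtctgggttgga

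Errfi1 (chr5:166606591-166606840, plus strand): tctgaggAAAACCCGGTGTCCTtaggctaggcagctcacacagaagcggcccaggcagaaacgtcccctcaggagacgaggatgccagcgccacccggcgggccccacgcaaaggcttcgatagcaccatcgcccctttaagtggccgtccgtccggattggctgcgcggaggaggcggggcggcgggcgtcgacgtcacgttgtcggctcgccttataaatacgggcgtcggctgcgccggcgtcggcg

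None of the 9 windows held AGAACA or its reverse complement TGTTCT, either arm of the element. Over all 33469 windows of the same length, 17.5% held an arm and 4 windows (0.012%) held the whole element on either strand. The best match shared 9 of the 12 fixed letters in Errfi1, and 12.4% of all windows had as many or more. It shared 8 in Pdk4 and in the Tsc22d3 window shown, 7 in Klf9 and 6 in Fkbp5, with a median of 8 over all windows. These counts say only which letters stand in these windows. Response elements of glucocorticoid-induced genes often lie farther away or within introns, and those regions were not searched.

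After filtering, 31227 nuclei of 37048 barcodes were retained, 2263 to 5952 per library, with 5581726 to 27069633 UMIs (unique molecular identifiers, 1 per counted RNA molecule) per library. The shallowest library was 1-kidney replicate 1. No pair of libraries shared more than 14 cell barcodes. Clustering gave 23 clusters, of which 18 were named from marker genes and 5, with 45.4% of the UMIs, stayed unnamed and entered only the sums over all retained nuclei. The member genes were kept out of the genes used for clustering. Levels are counts per 1000000 UMIs (CPM) of a library, over all retained nuclei or over its nuclei of 1 class. Cycling nuclei aside, the 9 classes whose smallest library held 50 or more nuclei were compared. The cycling class, with 780 nuclei and at least 84 in each library, was named but left out of the compared classes and of the 12 classes put in order. Slc34a1, a proximal tubule transporter whose RNA also reaches other droplets as free RNA, stood at 211 per 10000 UMIs in proximal tubule nuclei, at 24.8 in podocytes and at up to 168 in the other 7 compared classes (endothelium). In thin limb, mural and immune cells, which were named but not compared, Slc34a1 was at 81.6, 106 and 244. The level of any gene in a class can thus hold a share of free RNA. The sections' Slc34a1 was 292, 350 and 316 per 10000 UMIs in the 1-kidney libraries and 266, 267, 154 and 119 in the 2-kidney libraries, so that it differed between the groups too. Library names carry 1 of 2 set codes. Set P1117B consists of 2-kidney replicates 3 and 4 alone and set P1117 of the other 5 libraries, and the labels do not explain the codes.

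In all retained nuclei, Pdk4, Tsc22d3 and Fkbp5 were higher in every 1-kidney library than in every 2-kidney library, and the receptor gene itself stood at the same mean in both groups. Over all 14940 genes tested, 8.06% were higher in this way, and the choice of the genes used this contrast, so nothing is read from the count of 3 of 8. Pdk4 stood at 42.6, 35.5 and 37.6 CPM in 1-kidney replicates 1 to 3 and at 16.5, 7.95, 5.54 and 15 CPM in 2-kidney replicates 1 to 4. The groups were thus well apart. The log2 fold of 1-kidney over 2-kidney libraries was 1.82 ± 0.31 (SE). Tsc22d3 was at 32.1, 31.6 and 32.1 CPM against 14.4, 22.4, 15.7 and 21.4 CPM, a log2 fold of 0.81 ± 0.19. Its 1-kidney values were nearly the same. Fkbp5 was at 407, 431 and 451 CPM in the 1-kidney libraries and at 28.3, 162, 149 and 378 CPM in the 2-kidney libraries. The 1-kidney animals formed a narrow band, and 2-kidney replicate 4 came close to it. The log2 fold of Fkbp5 was 1.27 ± 0.60, which spans a wide range because of the spread within the 2-kidney group.

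**Figure D1:**
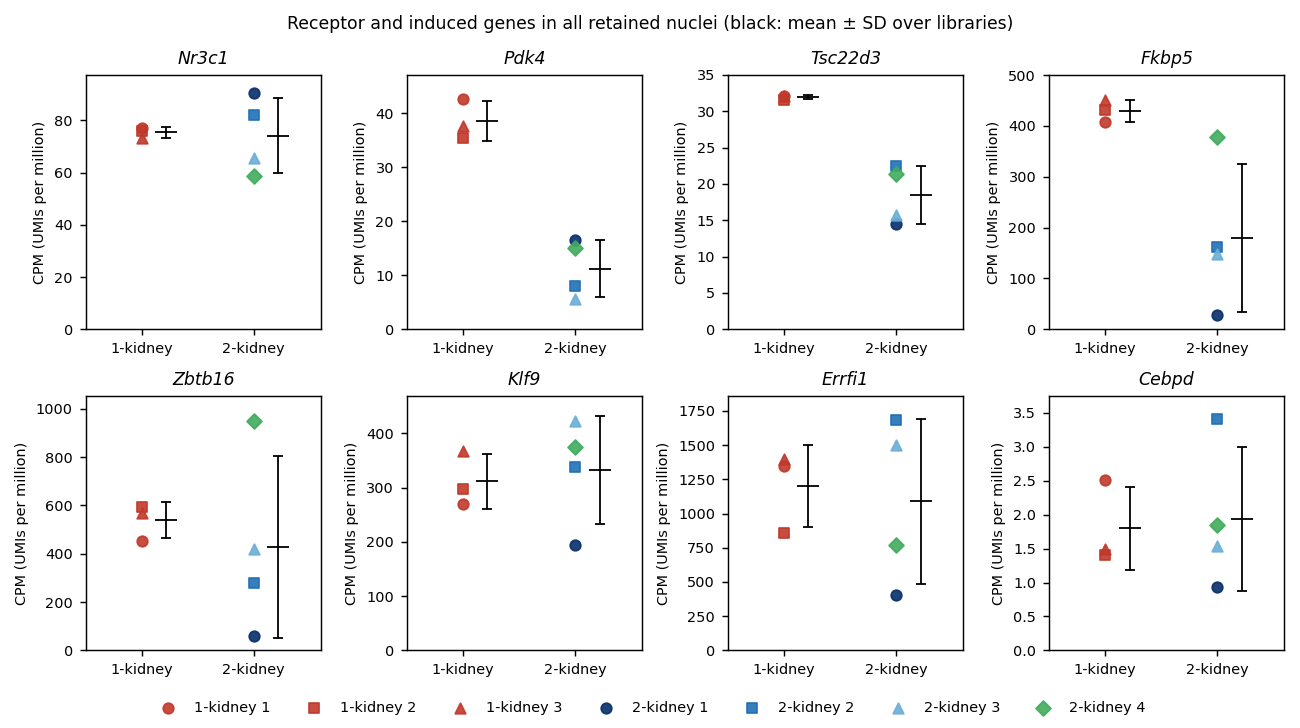
Level in CPM (y axis, from 0) of each of the 8 genes over all retained nuclei, with 1 point per library (3 1-kidney, 4 2-kidney) and the group mean ± SD in black. Pdk4, Tsc22d3 and Fkbp5 show separate groups, and in Fkbp5 and Zbtb16 2-kidney replicate 1 is lowest (28.3 and 59.9 CPM) and replicate 4 highest (378 and 950 CPM) of its group.

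The other 5 genes overlapped between the groups. Nr3c1 was at 77.2, 76.0 and 73.2 CPM against 90.4, 81.9, 65.5 and 58.9 CPM, with a log2 fold of 0.05 ± 0.15. Zbtb16 was at 454, 594 and 570 CPM against 59.9, 280, 421 and 950 CPM, with a log2 fold of 0.34 ± 0.65. Both the lowest and the highest value of Zbtb16 belonged to 2-kidney animals. Klf9 ranged from 270 to 368 CPM in the 1-kidney and from 194 to 423 CPM in the 2-kidney libraries (log2 fold -0.08 ± 0.26). Errfi1 was at 1348, 860 and 1395 CPM against 405, 1683, 1498 and 770 CPM (log2 fold 0.14 ± 0.44). Its libraries fell into high and low values within each group, with 1-kidney replicate 2 and 2-kidney replicates 1 and 4 below the others. Cebpd was close to the detection limit, with 224 UMIs in all 7 libraries and 0.936 to 3.42 CPM per library (log2 fold -0.17 ± 0.45). Weighting the 9 classes equally in each library gave log2 folds of 1.84 for Pdk4, 0.76 for Tsc22d3, 1.09 for Fkbp5 and -0.04 for Nr3c1, with the same order as in the sums.

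None of the 14940 genes passed the threshold in all retained nuclei (edgeR's quasi-likelihood test with Benjamini-Hochberg adjustment, adjusted p under 0.05, 0% called). Without adjustment, 3070 genes (20.5%) had a p under 0.05, 2 members (Pdk4 and Tsc22d3) among them. The adjusted p was 0.16 for Pdk4, 0.162 for Tsc22d3 and 0.255 for Fkbp5. DESeq2 on the same sums called 485 genes, with Pdk4 (adjusted p = 3.4e-05) and Tsc22d3 (adjusted p = 0.0142) among them. Leaving out 2-kidney replicate 1 lowered the log2 fold of Fkbp5 to 0.92 and leaving out 2-kidney replicate 4 raised it to 1.92, while the fold of Pdk4 stayed between 1.6 and 2.03 under all alternatives run.

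The spread within the 2-kidney group was large for several of these genes, and this was noticed after the values were seen. Zbtb16 differed 15.9-fold between the highest and the lowest 2-kidney library and Fkbp5 13.3-fold. Among the 6989 genes of at least 20 CPM these ranked 3 and 5, beside a median of 1.43-fold. Hif3a, another gene that glucocorticoids induce, ranked 4 with 4.28 CPM in 2-kidney replicate 1, 24.6 and 23.0 CPM in replicates 2 and 3 and 64.1 CPM in replicate 4. All 3 genes thus shared the same lowest and highest animal. Errfi1 ranked 35 (4.15-fold) with the same lowest animal but replicate 2 as the highest. Pdk4 ranked 137 (2.98-fold) with another order, replicate 1 being its highest animal (16.5 CPM) and replicate 3 its lowest (5.54 CPM). Other induced genes did not all share the order of Hif3a. Pik3r1 had the same lowest and highest animal (1.48-fold), while Tgm2 was highest in replicate 1, and Mt1 and Mt2A were lowest in replicate 4. Klf9 differed 2.18-fold, Tsc22d3 1.55-fold and Nr3c1 1.54-fold. In the 1-kidney group the highest library exceeded the lowest by 1.31-fold for Zbtb16, 1.11-fold for Fkbp5 and 1.02-fold for Tsc22d3, beside a median of 1.2-fold over the same genes. The 2-kidney animals with the extreme values of Fkbp5, Zbtb16 and Hif3a belonged to different library sets, replicate 1 to P1117 and replicate 4 to P1117B. Replicate 4 also had the lowest mitochondrial share (0.379% of UMIs, against 0.660% to 1.66% in the others). The part of the library set and of RNA quality in this spread was not tested.

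**Figure D2:**
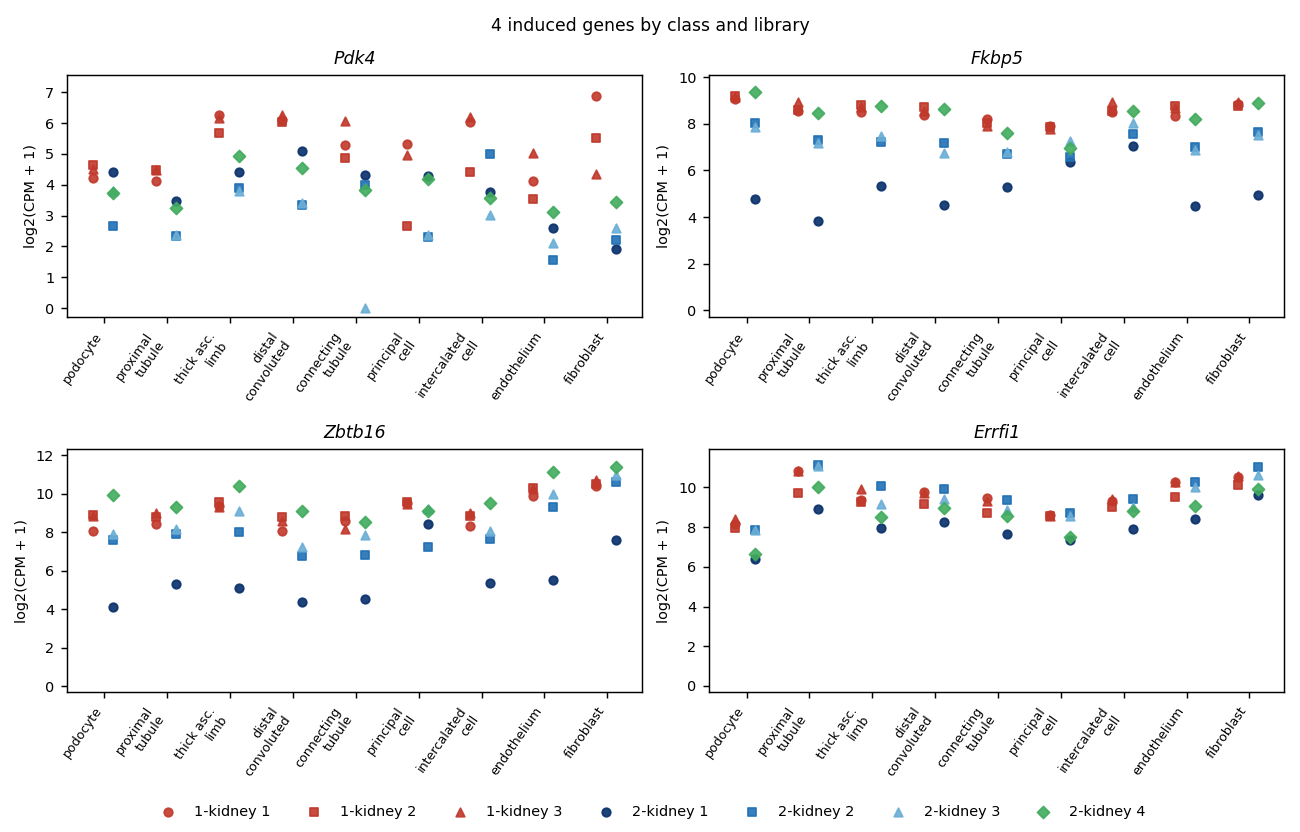
Level of Pdk4, Fkbp5, Zbtb16 and Errfi1 as log2(CPM + 1) (y axis) in 9 classes (x axis), 1 point per library, 1-kidney in red and 2-kidney in blue and green. In Fkbp5, 2-kidney replicate 1 lies below the other libraries in all 9 classes, with the smallest gap in principal cells (81.6 CPM, next 95.7 CPM).

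For Fkbp5 and Zbtb16 the same animals were low or high in nearly every class. For Fkbp5, 2-kidney replicate 1 was the lowest library of its group in all 9 classes and replicate 4 the highest in 8. For Zbtb16 these counts were 8 and 8. In the proximal tubule, the segment that takes back most of the filtrate, Fkbp5 was at 13.2 CPM in 2-kidney replicate 1 and at 354 CPM in replicate 4, a 26.9-fold difference between these 2 libraries (exact 95% interval 19.3 to 38.7). All such intervals cover counting error only. In podocytes, the filtering cells of the glomerulus, the same ratio was 24.5 (14.2 to 46.4), and in fibroblasts it was 15.9 (10.2 to 26.1). Principal cells, the sodium- and water-reabsorbing cells of the collecting duct, differed least, with a ratio of 1.49 (1.07 to 2.10) from 53 and 127 UMIs. Intercalated cells, the acid-base cells of the same duct, gave 2.88 (2.19 to 3.83) and the connecting tubule 5.20 (2.85 to 10.4). For Zbtb16 the ratio was 1.63 in principal cells (1.39 to 1.92), and 13.8 to 58.4 in the other 8 classes. Principal cells of 2-kidney replicate 1 held 337 CPM of Zbtb16, where its other classes held 16.4 to 190 CPM. These are values of 2 animals, so they give no test of a difference between classes. Slc14a2, first among the genes that set the principal cell cluster apart, had the largest 2-kidney spread of all (195-fold). In all retained nuclei it was at 126 CPM in 2-kidney replicate 1 and at 0.648, 17.4 and 3.66 CPM in replicates 2 to 4. Whether the principal cell class had the same make-up in these animals was not tested.

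Pdk4 had the largest log2 fold of the 8 genes in 6 of the 7 classes where it was fitted, and among the 9 compared classes its mean was highest in the distal convoluted tubule and the thick ascending limb, both salt-reabsorbing segments rich in mitochondria. In the distal convoluted tubule it was at 67.2, 64.1 and 76.5 CPM in the 1-kidney libraries and at 33.2, 9.23, 9.67 and 22.1 CPM in the 2-kidney libraries. Every 1-kidney library was higher, as for 6.63% of genes tested there, and the log2 fold was 2.02 ± 0.36 on 126 UMIs in all (edgeR adjusted p = 0.0467). This was the only 1 of the 58 member and class pairs tested that passed the threshold, among 5 of 7241 genes called in that class (0.0691%), and because the gene was chosen on this contrast it is no independent evidence. The call was lost without 1-kidney replicate 1 (adjusted p = 0.265), replicate 2 (0.0992) or replicate 3 (0.28), without 2-kidney replicate 2 (0.0673) or 3 (0.219), without set P1117B (0.0689) and with the set as a term (0.105), all by edgeR. DESeq2 gave no adjusted p there. Genes were also called in podocytes (0.0488%), endothelium (0.0815%), the connecting tubule (0.123%) and fibroblasts (1.2%), with no member among them. Slc34a1 in the same nuclei was at 165, 144 and 151 per 10000 UMIs against 133, 142, 52.5 and 46.2, again without overlap. Its groups were apart in 3 of the 9 compared classes (the others being endothelium and fibroblasts) and overlapped in 6. Pdk4 was lower in proximal tubule nuclei than in the distal convoluted tubule in each of the 7 libraries. The part of free RNA in the Pdk4 values was not tested.

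In the thick ascending limb Pdk4 was at 75.0, 50.01 and 69.9 CPM against 20.4, 13.8, 12.8 and 29.7 CPM, a log2 fold of 1.72 ± 0.31 (edgeR adjusted p = 0.0559). No gene of 8331 was called there (0%), and 6.48% were higher in every 1-kidney library. The pair passed the threshold without 2-kidney replicate 1 (0.024) or 4 (0.0131), without set P1117B (0.0372) and by DESeq2 (0.00139). In proximal tubule it was at 16.2, 21.2 and 21.3 CPM against 10.2, 4.04, 4.11 and 8.51 CPM, a log2 fold of 1.6 ± 0.32. The fold was 2.00 ± 0.41 in the convoluted and 1.6 ± 0.33 in the straight clusters of that class. Pdk4, Fkbp5 and Tsc22d3 were higher in every 1-kidney library in both, as were 5% and 7.51% of the genes tested. Convoluted nuclei were on average 3.24% ± 0.921 (SD) of a 1-kidney and 9.32% ± 4.28 of a 2-kidney library's retained nuclei. The part of this mix in the values of the whole proximal tubule was not tested. In the connecting tubule the values of Pdk4 were 37.8, 28.0 and 65.3 CPM against 18.9, 14.9, 0 and 13.1 CPM (log2 fold 1.99 ± 0.55). The library at 0 was 2-kidney replicate 3, where 3 counts would give 5.53 CPM.

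Pdk4 did not separate the groups everywhere. In intercalated cells the values were 65.2, 20.3 and 72.7 CPM against 12.6, 30.7, 7.15 and 10.8 CPM, with 1-kidney replicate 2 inside the 2-kidney range, and 4.71% of all genes there were higher in every 1-kidney library. The same library was at 5.32 CPM in principal cells, where the other 1-kidney libraries were at 39.0 and 30.1 CPM and the 2-kidney libraries at 3.91 to 18.5 CPM. In podocytes the ranges were 17.4 to 23.9 CPM and 5.36 to 20.5 CPM (log2 fold 0.76 ± 0.48). In endothelium and fibroblasts Pdk4 failed the filter on low counts, with 49 and 42 UMIs in all, and had no fitted value. Its groups were apart in both, beside 5.96% and 7.04% of the genes tested, at 10.6 to 31.6 CPM against 1.94 to 7.70 CPM in endothelium and at 116, 45.1 and 19.4 CPM against 2.80 to 9.83 CPM in fibroblasts.

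**Figure D3:**
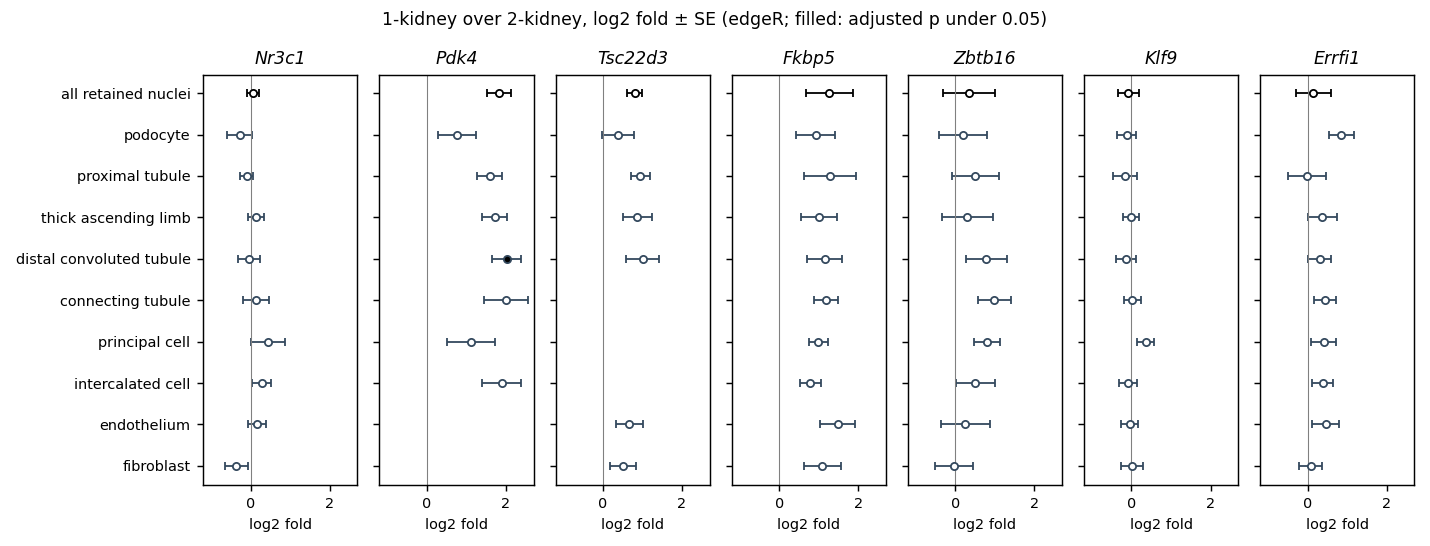
Log2 fold of 1-kidney over 2-kidney libraries ± SE (x axis) from edgeR for 7 genes in all retained nuclei and in 9 classes (y axis), filled where the adjusted p was under 0.05. Pdk4 lies right of 0 in all 7 classes where it was fitted (0.76 to 2.02) and Fkbp5 in all 9 (0.79 to 1.48), while Nr3c1 and Klf9 straddle 0. Cebpd was fitted in no class, and gaps are pairs that failed the filter on low counts.

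Fkbp5 was fitted in all 9 classes, with log2 folds from 0.79 ± 0.26 in intercalated cells to 1.48 ± 0.44 in endothelium. Its groups were apart in 4 classes, the proximal tubule, the connecting tubule, principal cells and endothelium, where 7.61%, 6.62%, 7.96% and 5.96% of the genes tested were higher in every 1-kidney library. In principal cells the values were 241, 234 and 219 CPM against 81.6, 95.7, 150 and 122 CPM, a log2 fold of 0.99 ± 0.24. In the connecting tubule they were 291, 263 and 236 CPM against 37.8, 104, 109 and 196 CPM (1.18 ± 0.30, edgeR adjusted p = 0.0989). DESeq2 called Fkbp5 in both (adjusted p = 0.0288 in principal cells and 0.0286 in the connecting tubule), among 63 of 7810 and 39 of 6496 genes. With the set as a term, edgeR called it in the connecting tubule (adjusted p = 0.0125), intercalated cells (0.0183), endothelium (0.0194) and fibroblasts (0.0223). That setting called 3, 1, 23 and 113 genes in these classes, in that order. In the 5 classes where its groups overlapped, 2-kidney replicate 4 lay within or above the 1-kidney range. Without set P1117B, which holds that animal, the folds of Fkbp5 passed the threshold in 6 classes, the thick ascending limb, the distal convoluted and connecting tubules, intercalated cells, endothelium and fibroblasts, by edgeR on 3 against 2 libraries. In these classes, in that order, the same setting called 6 of 8087, 6 of 6871, 17 of 6069, 3 of 6880, 28 of 8279 and 91 of 5905 genes.

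Zbtb16 had log2 folds from -0.04 ± 0.47 in fibroblasts to 0.99 ± 0.42 in the connecting tubule. Only in principal cells were its groups apart, at 722, 760 and 695 CPM against 337, 146, 579 and 550 CPM (0.81 ± 0.34). In endothelium the 1-kidney libraries held 943 to 1260 CPM, inside the 2-kidney range of 45.3 to 2205 CPM. Without set P1117B, Zbtb16 passed the threshold in 3 classes, the distal convoluted tubule (log2 fold 2.35), the connecting tubule (2.41) and intercalated cells (1.90). Genes called there under that setting were 6 of 6871, 17 of 6069 and 3 of 6880.

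Tsc22d3 was fitted in 6 classes, all with folds above 0, from 0.38 ± 0.40 in podocytes to 1.00 ± 0.42 in the distal convoluted tubule. In the proximal tubule it was at 41.5, 36.2 and 35.2 CPM against 12, 24.7, 16.9 and 21.7 CPM, groups that were apart, with a log2 fold of 0.95 ± 0.24. DESeq2 called that pair (adjusted p = 0.0363) and edgeR did not (0.247). In the connecting tubule, where it failed the filter with 46 UMIs, the values were 59.4, 23.3 and 25.6 CPM against 5.53 to 12.4 CPM. In fibroblasts, where Tsc22d3 was highest, the groups overlapped at 48.0 to 77.8 CPM against 32.6 to 57.3 CPM.

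Errfi1 separated the groups in podocytes alone, at 288, 249 and 338 CPM against 83.9, 230, 233 and 98.5 CPM (log2 fold 0.85 ± 0.31, edgeR adjusted p = 0.388), where 4.5% of all 6152 genes tested were higher in every 1-kidney library. In the proximal tubule it was at 1836, 839 and 1794 CPM against 480, 2233, 2168 and 1024 CPM (-0.02 ± 0.48). The low libraries there were the same 3 as in all retained nuclei. Klf9 had folds from -0.16 to 0.36 over the 9 classes and no class in which its groups were apart. Its lowest 2-kidney library was replicate 1 in all 9 classes. Nr3c1 had folds from -0.36 ± 0.29 in fibroblasts to 0.44 ± 0.42 in principal cells, 5 of 9 above 0, and its groups overlapped in every class. In the convoluted clusters of the proximal tubule it was at 90.5, 98.2 and 89.1 CPM against 84.4, 88.9, 82.9 and 69.2 CPM, apart by 0.2 CPM.

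Whether the 1-kidney difference itself varied between the 9 classes was tested in 1 model of all class sums, with each library as a block. No member passed (edgeR adjusted p = 0.618 for Pdk4, 0.757 for Fkbp5, 0.751 for Tsc22d3, 0.823 for Zbtb16 and 0.432 for Errfi1), among 13 of 10443 genes called (0.124%). Of the 8 genes, Errfi1 alone had an unadjusted p under 0.05 (0.036). A larger fold of Pdk4 in 1 segment than in another is therefore not shown by these libraries, and equal folds are not shown either.

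Over the classes, Nr3c1 was lowest where the mineralocorticoid receptor gene Nr3c2 was highest. Its mean over the 7 libraries was 25.3 ± 10.8 CPM (SD) in principal cells and 38.3 ± 7.12 CPM in the connecting tubule. The next higher classes were podocytes (59.6 ± 19.7 CPM) and the proximal tubule (65.0 ± 7.00 CPM). Podocytes were above the connecting tubule in 6 of 7 libraries, and the connecting tubule above principal cells in 6 of 7. The upper end held immune cells (104 ± 29.4 CPM), endothelium (92.8 ± 18.2 CPM), fibroblasts (88.7 ± 27.4 CPM) and the distal convoluted tubule (87.3 ± 21.2 CPM), neighbours that did not differ beyond their spread. The immune cell value rests on 96 UMIs in 324 nuclei. Slc34a1 in these nuclei (244 per 10000 UMIs) was above its level in proximal tubule nuclei (211). Nr3c2 stood at 2558 ± 745 CPM in the connecting tubule and 2423 ± 763 CPM in principal cells, which did not differ beyond their spread, and was lowest in podocytes at 138 ± 50.5 CPM. Hsd11b2, whose enzyme inactivates corticosterone, was at 673 ± 125 CPM in the connecting tubule and 405 ± 152 CPM in principal cells, and at 66.3 ± 15 CPM in intercalated cells, the next class. Hsd11b1, whose enzyme regenerates the hormone, was highest in the proximal tubule as a whole at 535 ± 106 CPM, above fibroblasts (284 ± 40.9 CPM) in 7 of 7 libraries. Within that class the straight part held 675 ± 76 CPM. The convoluted part held 222 ± 57 CPM, below fibroblasts in every library. Low levels of these genes in a class are not read as expression, since free RNA can give them.

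**Figure D4:**
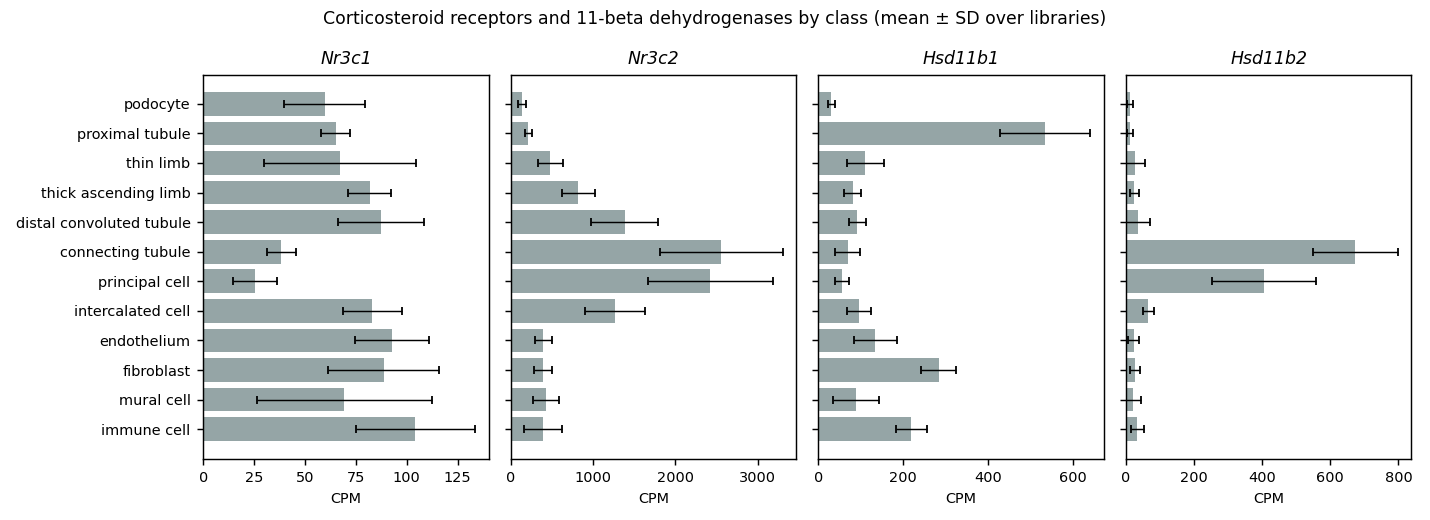
Mean level in CPM ± SD over libraries (x axis, from 0, with its own scale in each panel) of Nr3c1, Nr3c2, Hsd11b1 and Hsd11b2 in 12 classes (y axis). Nr3c1 is lowest in the connecting tubule (38.3 CPM) and principal cells (25.3 CPM), where Nr3c2 and Hsd11b2 are highest.

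The induced genes had different orders over the classes. Zbtb16 was highest in fibroblasts (1541 ± 734 CPM, above the next class in 7 of 7 libraries), mural cells (1069 ± 523 CPM) and endothelium (1040 ± 658 CPM), and lowest in the connecting tubule (265 ± 156 CPM). Errfi1 was highest in the proximal tubule (1482 ± 694 CPM) and fibroblasts (1363 ± 440 CPM), which changed places in 2 of 7 libraries. It was lowest in podocytes (217 ± 93.8 CPM), below principal cells in every library. Among the 9 compared classes Slc34a1 was likewise highest in the proximal tubule (211 per 10000 UMIs), endothelium (168) and fibroblasts. It was also lowest in podocytes (24.8), with principal cells next. The part of free RNA in the class order of Errfi1 was not tested. Klf9 was highest in endothelium (429 ± 86.9 CPM) and the proximal tubule (370 ± 106 CPM). Its lowest 3 classes, the connecting tubule (160 ± 25.3 CPM), principal cells (164 ± 30.6 CPM) and intercalated cells (166 ± 38.0 CPM), did not differ beyond their spread. Tsc22d3 was highest in fibroblasts (49.6 ± 15.4 CPM) and podocytes (35.4 ± 14.4 CPM) and lowest in principal cells (10.5 ± 4.69 CPM). Fkbp5 was highest in podocytes (409 ± 236 CPM, above immune cells in 6 of 7 libraries) and lowest in principal cells (163 ± 67.5 CPM), a narrow 2.50-fold range of means. Among the 12 classes Pdk4 was highest in mural cells (42.3 ± 43.3 CPM, on 11 UMIs in all and with libraries at 0). The distal convoluted tubule (40.3 ± 28.5 CPM) and the thick ascending limb (38.8 ± 26.2 CPM) came next. It was lowest in endothelium (10.9 ± 10.3 CPM). Cycling nuclei, which were not put in order, held more Pdk4 than any of these classes, at 48.0 ± 26.9 CPM on 200 UMIs. Cebpd reached 11.5 ± 10.5 CPM in fibroblasts and was at 0 in at least 1 library of every class. Principal cells thus had the lowest or next to lowest mean of Nr3c1, Tsc22d3, Fkbp5, Klf9 and Errfi1 among the 12 classes. They stood at place 7 from the top for both Zbtb16 and Pdk4, and Cebpd was too sparse to order.

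The share of nuclei with at least 1 UMI of a gene was compared after each nucleus of at least 1000 UMIs was thinned to 1000 UMIs, which left 8183 1-kidney and 16895 2-kidney nuclei. Pdk4 was seen in 3.49% ± 0.282 of 1-kidney nuclei and in 1.11% ± 0.426 of 2-kidney nuclei (SD, n = 3 and 4). Without thinning the shares were 9.20% ± 1.33 and 3.76% ± 1.70, and the groups were apart either way. In thick ascending limb nuclei the thinned shares were 6.14% ± 0.911 and 1.98% ± 0.593. In proximal tubule nuclei they were 2.32% ± 0.380 and 0.560% ± 0.366. Fkbp5 was seen in 31.6% ± 2.48 and 14.4% ± 10.1 of all nuclei thinned, and in 50.2% ± 6.52 and 31.2% ± 18.6 without thinning. By library the thinned shares were 29.1%, 34.1% and 31.7% against 3.38%, 13.9%, 12.5% and 27.8%. Fkbp5 thus followed the CPM, with 2-kidney replicate 1 low and replicate 4 just below the 1-kidney libraries. Tsc22d3 was seen in 3.28% ± 0.266 and 1.93% ± 0.482 of nuclei thinned (8.29% ± 1.85 and 6.16% ± 1.42 without thinning, where the groups overlapped), and Nr3c1 in 6.87% ± 0.238 and 7.07% ± 1.34. No class is known to lack these genes, so a background share for free RNA cannot be set.

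Likeness was taken as Pearson's r of log2(mean CPM + 1) over the same 12 classes, among 9908 genes. The genes most like Errfi1 were Bdh2 and Aldh7a1 (r = 0.973 for both). Those most like Klf9 were Sgpp1 (0.927) and St6galnac4 (0.922), and those most like Fkbp5 were Hsp90b1 (0.867) and Rbm15 (0.854). Pdk4 was most like Hars2 (0.890) and Zfp609 (0.877), Tsc22d3 most like Tnfrsf9 (0.917), Zbtb16 most like Rftn2 among named genes (0.894), and Nr3c1 most like Rpf1 among named genes (0.890). The points share their 7 libraries and their depths, and most of these partners are thinly counted, with a highest class mean of at most 88.6 CPM apart from Hsp90b1 and Zfp609. Cebpd was too sparse for its order to be read.

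Of 22 other genes that glucocorticoids are known to induce, 21 passed the filter in all retained nuclei, 11 with a fold above 0 and none past the threshold in either direction. At an unadjusted p under 0.05 there were 5 higher and 2 lower, beside 20.5% of all genes tested in either direction. Their median log2 fold was 0.112, beside -0.00958 over all genes tested. Sgk1, a kinase induced by both corticosteroid receptors that activates sodium transport, was at 281, 288 and 299 CPM against 149, 180, 169 and 180 CPM, a log2 fold of 0.79 ± 0.14. Its groups were apart in all 9 compared classes, in which 4.5% to 7.96% of genes were higher in every 1-kidney library. In the connecting tubule it was at 459, 403 and 406 CPM against 211, 211, 170 and 206 CPM and passed the threshold (1.08 ± 0.18, edgeR adjusted p = 0.0186), 1 of 8 genes called of 6496 (0.123%). That call was lost without 1-kidney replicate 1 (adjusted p = 0.205), 2 (0.134) or 3 (0.0883) or 2-kidney replicate 3 (0.0587), and over all alternatives run the adjusted p lay between 0.000358 (DESeq2) and 0.205. Angptl4, an inhibitor of lipoprotein lipase, had a log2 fold of 1.32 ± 0.41, and Ddit4, an inhibitor of mTOR signalling, one of 0.84 ± 0.30. Irs2, the insulin receptor substrate, had a log2 fold of -0.77 ± 0.31 and was lowest in 1-kidney replicate 2 (48.9 CPM). Per1, a clock gene with a response element for the receptor, was at 81.2, 45.5 and 52.6 CPM against 21.4, 51.7, 35.3 and 39.8 CPM (0.69 ± 0.30).

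Of 13 genes for the receptor's partners and hormone enzymes, all were tested and none passed, with 8 folds above 0 and a median log2 fold of 0.126. Hsp90ab1, a subunit of the chaperone that holds the receptor, was at 514, 312 and 365 CPM against 278, 203, 238 and 214 CPM (log2 fold 0.80 ± 0.18). Stip1, the co-chaperone that passes clients to it, had a log2 fold of 0.45 ± 0.15. Nr3c2 was at 457, 367 and 544 CPM against 587, 704, 700 and 706 CPM (-0.54 ± 0.18), every 1-kidney library below every 2-kidney library, as were 10.7% of all genes tested. Hsd11b1 had a log2 fold of 0.34 ± 0.14 and Hsd11b2 one of 0.13 ± 0.25.

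Some of the induced genes also follow the clock, fasting or acute stimuli, so lists for these were counted beside them. Of 16 clock genes tested none passed in all retained nuclei, with 10 above 0 and a median log2 fold of 0.0647. Cry2, a repressor of the clock, had the smallest p (log2 fold -0.80 ± 0.20), ahead of Per1 and of Nr1d1 (0.48 ± 0.23), which encodes REV-ERB alpha. Cry2 passed the threshold in fibroblasts (-2.06 ± 0.50, edgeR adjusted p = 0.0475), a class in which 79 of 6579 genes passed (1.2%). The Cry2 call was lost without 1-kidney replicate 1 (edgeR adjusted p = 0.172), 2 (0.222) or 3 (0.0842), with the library set as a term (0.101) and with predicted doublets kept (0.0922). Cry2 failed the filter without 2-kidney replicate 1, 3 or 4 and without set P1117B. Without 1-kidney replicate 1 or 2 no fibroblast gene passed. Of 12 genes of fasting and PPARA signalling tested none passed, with 9 above 0 and a median of 0.155. Angptl4, whose counts were low and whose groups overlapped, led that list. Vnn1, a pantetheinase (0.52 ± 0.23), and Cyp4a1, a fatty acid hydroxylase (0.46 ± 0.26), followed. Of 13 immediate early genes tested none passed, with 7 above 0 and a median of 0.0839. Btg2 (-0.76 ± 0.21), Nr4a1 (-1.05 ± 0.38) and Jun (0.51 ± 0.32) had the smallest p of that list. Kdm5d (99.8 to 126 CPM) and Eif2s3y (46.3 to 50.8 CPM), both carried on the Y chromosome, were counted in all 7 libraries, and Ddx3y, also on it, had 1 UMI in 1 library and 0 in the other 6.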

How the data were processed

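Per the labels' protocols, nuclei were processed with 10x Genomics 3' kits (version 3.1) and the 7 libraries were sequenced together on 2 runs. The authors deposited whole-number UMI counts for each barcode, made with Cell Ranger 7.0 per the submitters' processing notes. For the genome build and gene annotation, the sources used here give nothing. The 8 member genes, the other gene lists and the markers were chosen with earlier results of these data known.

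Kept were barcodes of 200 or more genes with a mitochondrial share of UMIs up to 5%. Scrublet scores (scanpy 1.11.5) marked at most 4 barcodes in a library with the automatic threshold, so the highest scores were removed down to the expected 0.8% per 1000 barcodes. Clusters were made with the Leiden algorithm (leidenalg 0.10.2, resolution 1) from 20 neighbours in 30 principal components of the 2000 most variable genes, members left out. To be named, a cluster needed at least 3 markers of a class at least 2-fold above the median of the other clusters. The leading marker had to be at least 3-fold above it. The mean log2 fold of the class's markers had to exceed that of the next class by at least 0.5. Clusters with at least 2 red cell or urothelial genes among their leading genes, and shallow clusters with no marker of their class there, stayed unnamed. These bounds were set after seeing the data. Names rest on rebuilt clusters, not on a deposited annotation.

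Counts were summed by library and class, because the animal is the replicate, and tested two-sided in R 4.3.3 with the quasi-likelihood test of edgeR 4.0.16, TMM factors, the filterByExpr filter and Benjamini-Hochberg adjustment over all genes tested, and with DESeq2 1.42.0 as an alternative. The scripts were tested on simulated counts. Depth ran from 5581726 to 27069633 UMIs per library, which limits genes such as Cebpd. Intervals cover counting error only. Named were all 8 members, the 4 genes of smallest p of the other induced genes, 3 of each other list, and Sgk1, Per1, Nr3c2, Hsd11b1 and Hsd11b2. Hif3a, Pik3r1, Tgm2, Mt1, Mt2A and Slc14a2 were named after their values were seen. Alternatives were RLE factors, no filter, DESeq2, each library left out, set P1117B left out or as a term, doublets kept, a mitochondrial limit of 1%, equal class weights, split proximal tubule clusters and other thinning depths.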

Additional observations from a re-analysis of the deposited data

How the results depend on the processing

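No member passed the threshold in all retained nuclei under any edgeR alternative, and 2 did by DESeq2. Of the 58 member and class pairs 1 passed, beside 4 by DESeq2 and 5 with the library set as a term. With no filter 14 pairs passed (12 of the 58, with Pdk4 in endothelium and fibroblasts added), and without set P1117B 11 (10 of the 58, with Pdk4 in fibroblasts added). Over all genes, the 9 classes had 0 to 79 calls each in the main fit and 59 to 287 with no filter. They had 0 to 120 by DESeq2, 0 to 113 with the set as a term and 0 to 91 without set P1117B. Leaving out 1 library gave 0 to 6 pairs, 0 without 1-kidney replicate 1 or 2 or 2-kidney replicate 2 or 3, 1 (Pdk4 in fibroblasts, outside the 58) without 1-kidney replicate 3, 3 without 2-kidney replicate 1 and 6 without 2-kidney replicate 4. No member passed the test of a difference between classes under the alternatives run. The share of nuclei with a Pdk4 UMI differed by 2.38 percentage points thinned to 1000 UMIs, by 1.51 thinned to 500 and by 5.44 without thinning. Over the alternatives, and in all retained nuclei and the classes and proximal tubule clusters where the gene passed the filter with all libraries, the log2 fold of Pdk4 (0.60 to 2.35) and Fkbp5 (0.55 to 2.56) changed sign in none of 125 and 158 refits, and that of Tsc22d3 in 1 of 118. In fibroblasts, which that range leaves out, the log2 fold of Pdk4 was 3.05 with no filter, 3.60 without 1-kidney replicate 3 and 3.89 without set P1117B. Klf9 changed sign in 46, Errfi1 in 20, Nr3c1 in 13 and Zbtb16 in 11 of 158. In all retained nuclei Zbtb16 went from 0.34 to -0.01 without 2-kidney replicate 1, 1.08 without 2-kidney replicate 4 and 1.66 without set P1117B. Groups of 4 members, Zbtb16 added, were apart without 2-kidney replicate 4, where 9.32% of all genes were higher in every 1-kidney library, a count added after seeing the data. Counts of all genes moved more than 1.5 times in most classes: in all retained nuclei from 0 to 485 by DESeq2, in the distal convoluted tubule from 5 to 177 with no filter, 49 by DESeq2, 259 without 2-kidney replicate 1 and 0 without any 1 of the 1-kidney libraries or 2-kidney replicate 3, and in fibroblasts from 79 to 254 with no filter, 14 with doublets kept and 0 without 1-kidney replicate 1 or 2. The difference between classes called 13 genes, and 3 to 196 when 1 library was left out. The cause of these changes was not tested. No paired analysis was possible because the titles carry a separate animal number for each library, and replicate numbers follow the accession order.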
